A study of Homo sapiens with 32 samples.

Results

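The first exon-exon junction of a spliced mRNA is where the first and the second exon meet once the first intron is gone. For each protein-coding gene on GRCh37 the canonical transcript (or, where none was marked, the one with the longest coding sequence) was taken when it had 4 or more exons. The first junction was kept when both of its exons measured 100 nt or more. Of 15470 such transcripts, 7966 gave a first junction, 7489 had a first or second exon under 100 nt, 10 had an unresolved base in the window and 5 shared a position with another transcript. The same transcripts held 72854 internal and 10410 last junctions of the same kind. Of the 7966 first junctions, 5298 lay within the coding sequence, 2662 in the 5′ UTR and 6 in the 3′ UTR. The median first exon was 220 nt long and the median first intron 4796.5 nt, against a median of 1558 nt for introns at internal junctions. Around each junction the last 100 nt of exon 1 (positions -100 to -1) and the first 100 nt of exon 2 (+1 to +100) form the window.

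The tags came from iCLIP, in which ultraviolet light joins protein to RNA in living cells and reverse transcription stops at the joined base, so that each deduplicated cDNA (a tag) marks a contact to 1 base. The cells were, by their labels, HEK293T FlpIn, an established human kidney line into which a transgene is inserted at a fixed recombination site. Stable lines carried FLAG-tagged Alyref, Chtop or Nxf1, or the FLAG tag alone (Control), and every immunoprecipitation used an anti-FLAG antibody. Tetracycline induced the proteins over 48 h. The dose was 10 ng/mL in the Alyref and Chtop lines and 5 ng/mL in the Nxf1 line, while the labels give none in the Control line. Each group had 3 libraries, and because the sources do not say whether these came from separate cultures, p-values measure only the spread between libraries. The endogenous proteins remain in these cells, so the tagged protein is measured beside an untagged pool.

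Alyref and Chtop belong to TREX, the complex that joins spliced mRNA to the export receptor Nxf1. The exon junction complex is left by the spliceosome a short distance upstream of each junction, whereas the cap-binding complex sits on the 5′ end. At the first junction both lie near each other when the first exon is short, and Alyref is known to contact both complexes, so the first junction is where the 5′ end and the splice mark can be compared.

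The 6 most Alyref-tagged first junctions whose stretch from -75 to +25 is wholly coding are shown to give the sequence in which the tags lie, with the segment from -75 to -24 in capitals and the rest of exon 1 and the start of exon 2 in lower case. They are read 5′ to 3′ from the GRCh37 genome on the strand of the gene, with T for U. In each line below the first 75 bases are exon 1 and the last 25 are exon 2.
DDX17: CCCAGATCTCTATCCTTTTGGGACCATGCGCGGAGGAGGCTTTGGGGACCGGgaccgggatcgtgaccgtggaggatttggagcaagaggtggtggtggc
FANCA: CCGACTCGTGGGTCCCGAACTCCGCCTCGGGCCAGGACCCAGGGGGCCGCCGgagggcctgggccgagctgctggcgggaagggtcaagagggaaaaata
CD46: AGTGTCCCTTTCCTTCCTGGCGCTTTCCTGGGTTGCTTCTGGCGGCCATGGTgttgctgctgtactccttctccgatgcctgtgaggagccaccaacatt
ANKRD10: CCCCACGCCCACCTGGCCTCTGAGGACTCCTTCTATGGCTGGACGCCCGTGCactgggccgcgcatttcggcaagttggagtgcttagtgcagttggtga
SREK1: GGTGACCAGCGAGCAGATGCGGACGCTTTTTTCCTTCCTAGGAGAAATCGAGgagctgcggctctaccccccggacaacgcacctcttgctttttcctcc
SRSF1: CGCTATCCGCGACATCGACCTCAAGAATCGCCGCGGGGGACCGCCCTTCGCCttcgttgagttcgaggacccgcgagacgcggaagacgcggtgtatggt

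The stretch of DDX17 lies at chr22:38901956-38902030 (exon 1) and chr22:38897261-38897285 (exon 2), minus strand. That of FANCA lies at chr16:89882945-89883019 (exon 1) and chr16:89882370-89882394 (exon 2), minus strand. That of CD46 lies at chr1:207925580-207925654 (exon 1) and chr1:207930359-207930383 (exon 2), plus strand. That of ANKRD10 lies at chr13:111567072-111567146 (exon 1) and chr13:111563093-111563117 (exon 2), minus strand. That of SREK1 lies at chr5:65440291-65440365 (exon 1) and chr5:65449291-65449315 (exon 2), plus strand. That of SRSF1 lies at chr17:56084305-56084379 (exon 1) and chr17:56083864-56083888 (exon 2), minus strand. In DDX17, which encodes an RNA helicase, the capitals hold 21 Alyref and 18 Chtop tags, and 0 from Nxf1. In FANCA, a Fanconi anaemia DNA repair gene, they hold 15 Alyref and 2 Chtop tags, although only 5 of the 52 bases are uracil. SREK1, a splicing regulator, had 20 Alyref tags in the capitals and 5 Chtop tags, and 12 of those Alyref tags were on a uracil. CD46, a complement regulator on the cell surface, had 17 Alyref and 7 Chtop tags, the splicing factor gene SRSF1 had 12 and 7, and ANKRD10 had 8 and 4.

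Depth set what could be seen. The libraries held 7017 to 631704 tags in all, and library 1 was the shallowest of every group. First-junction windows received 1341, 11841 and 9299 tags in Alyref libraries 1, 2 and 3, 426, 6088 and 5312 in Chtop, 72, 1039 and 740 in Nxf1 and 79, 218 and 78 in the Control. At least 1 tag fell on 4397 first junctions (55.2%) in the Alyref group. Chtop tagged 3495 (43.9%) and Nxf1 1291 (16.2%), while 329 (4.13%) had a Control tag and 3033 had none in any library. Alyref and Chtop shared 3055 tagged first junctions, which is 69.5% of the Alyref list and 87.4% of the Chtop list. In Nxf1 library 1 and Control library 1 uracil was most frequent 2 nt upstream of the assigned base rather than at it, so positions in those libraries stand apart. Nxf1 and Control values below rest on few tags. The labels put library 2 of every group on HiSeq lanes 5 and 6, and libraries 1 and 3 on lanes 7 and 8. They also list a MiSeq run for libraries 1 and 2 of every group but not for library 3.

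Alyref tags lay at -75 to -24 more often in each of its libraries than in any library of the other factors, although the difference did not pass the adjustment for the number of comparisons. Chtop tags lay there less often than even coverage gives. Positions -75 to -24 cover 52 of the 200 nt, so even coverage gives 26%. The share of tags there, with each tagged junction weighted equally, was 27.0%, 28.5% and 28.3% in Alyref libraries 1, 2 and 3. In Chtop it was 21.9%, 22.6% and 22.5%, below even coverage in each library. All 3 Alyref libraries lay above all 3 Chtop libraries, on either pair of lanes. The Nxf1 libraries gave 12.7%, 26.2% and 26.6%, of which the first rests on 72 tags (95% Wilson interval of its summed share 7.72% to 23.7%). The Control libraries gave 22.7%, 30.4% and 42.2%, a range that holds all 3 Alyref values, while all 3 Chtop values lay just below it.

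The Alyref mean of 27.9% ± 0.806 (SD, n = 3) exceeded that of the other factors by 5.87 percentage points, with all Alyref libraries above the other 6 (exact permutation test, two-sided, p = 0.0476). After Benjamini-Hochberg adjustment over the 24 comparisons of this family the p of that exact test was 0.286, so the difference did not pass. With the library number as a block, exact permutation within numbers gave p = 0.0741. Without Nxf1 library 1 the difference was 4.00 points, and with both exons at 200 nt or more it was 1.05 points. The Chtop mean was 22.3% ± 0.375 (SD, n = 3), and its difference of -9.46 points from the Control reached p = 0.1 in the exact permutation test, the smallest p that 3 libraries against 3 allow. Between Alyref and the Control the difference was -3.83 points (exact permutation p = 0.7). Without Control library 1 it was -8.34 points for Alyref and -13.97 for Chtop, and without Control library 3 it was 1.39 and -4.24.

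**Figure D1:**
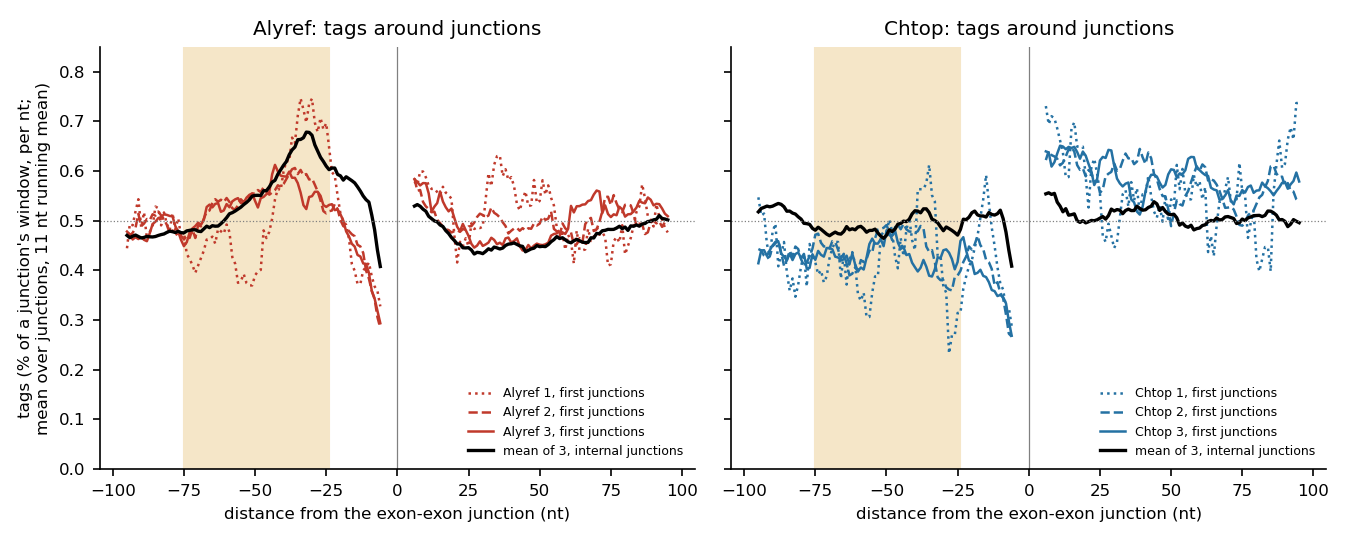
Tags around first junctions for Alyref (left) and Chtop (right), as the percent of a junction's window per nt averaged over junctions (11 nt running mean), against distance from the junction; coloured lines are the 3 libraries, the black line is the mean at internal junctions and the shaded band is -75 to -24. Alyref libraries 2 and 3 are highest upstream at -36 and -43, whereas Chtop libraries 2 and 3 are highest downstream at +15 and +11.

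By position, the Alyref libraries were highest at -34, -36 and -43 nt, within the interval, on an 11 nt running mean. Chtop libraries were highest at +95, +15 and +11. Nxf1 libraries were highest at +11, +28 and +66, and Control libraries at +80, -47 and -39, on far fewer tags. Between -50 and -25, Alyref had 0.588% ± 0.0288 (SD, n = 3) of a window's tags per nt and Chtop 0.448% ± 0.0209 (SD, n = 3), where even coverage is 0.5% per nt. Between +5 and +24 the order was turned, with 0.529% ± 0.0196 (SD, n = 3) for Alyref and 0.630% ± 0.0205 (SD, n = 3) for Chtop. Farther into exon 2, from +51 to +75, Chtop kept 0.567% ± 0.0140 (SD, n = 3) and Alyref 0.495% ± 0.0147 (SD, n = 3). The Control had 0.703% ± 0.201 (SD, n = 3) between -50 and -25, above the Alyref mean, and Nxf1 0.345% ± 0.206. Between +5 and +24 the Control had 0.617% ± 0.143 (SD, n = 3) and Nxf1 0.665% ± 0.220, beside the Chtop mean. Neither feature was thus particular to Alyref or Chtop in these means.

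Exon 1 as a whole received 48.3%, 49.6% and 49.3% of Alyref window tags and 41.9%, 42.1% and 40.8% of Chtop window tags. Nxf1 gave 38.0%, 48.0% and 47.1%, and the Control 44.8%, 54.1% and 60.9%. The 3 Alyref values were above those of the other 6 factor libraries, by 6.06 points on average (exact permutation p = 0.0476, adjusted p = 0.286), and the 3 Chtop values were below those of the Control by 11.7 points (exact permutation p = 0.1). Without Nxf1 library 1 the Alyref lead was 5.07 points. Base composition differed between the sides of the junction. Exon 1 windows held 16.97% uracil and 64.8% GC, and exon 2 windows 22.6% uracil and 51.9% GC. Internal junctions held 22.3% and 23.0% uracil on their upstream and downstream sides.

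Crosslinking favours uracil, and 43.5% ± 0.751 (SD, n = 3) of Alyref and 45.5% ± 4.40 (SD, n = 3) of Chtop tags in first-junction windows were on uracil. Nxf1 tags gave 27.8%, 38.7% and 40.7% by library, and Control tags 25.3%, 37.2% and 39.7%, with library 1 lowest in both. From each library's own tag rate per base, the share of tags expected in exon 1 at first junctions was 47.3% to 48.2% for Alyref and Chtop. Against that expectation Alyref lay at 0.929 ± 0.773 percentage points (SD, n = 3) and Chtop at -5.98 ± 0.626 (SD, n = 3). For -75 to -24 the same subtraction left 2.74 ± 0.847 points for Alyref (SD, n = 3) and -2.65 ± 0.700 for Chtop (SD, n = 3). The Alyref lead over the other factors was then 5.65 points (exact permutation p = 0.0595).

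**Figure D2:**
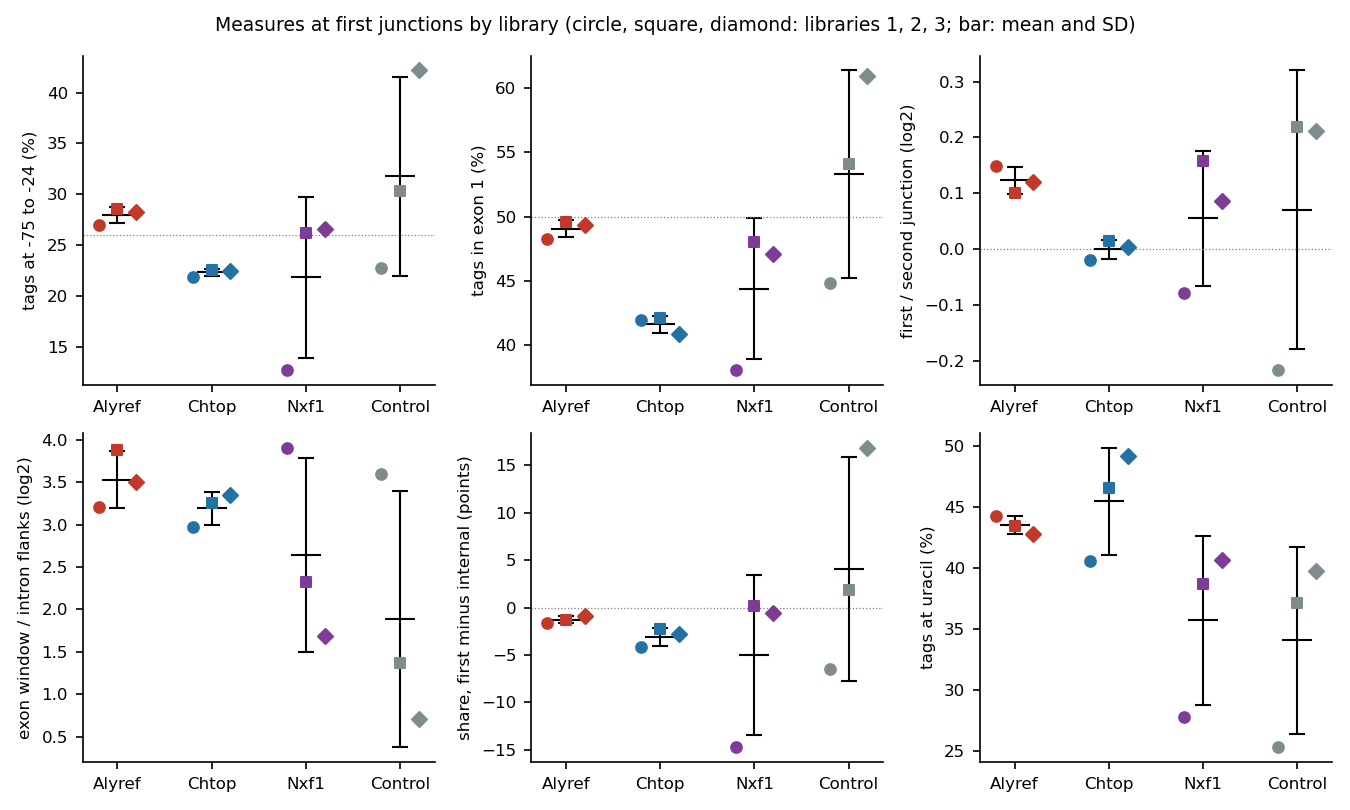
Values of 6 measures at first junctions in the 12 libraries (circle, square and diamond for libraries 1, 2 and 3; bars give the mean and SD; dotted lines mark even coverage or a ratio of 1). The Alyref and Chtop libraries lie close together within each group for tags at -75 to -24 and in exon 1, and library 1 of Nxf1 lies apart from the other Nxf1 libraries in all 6 panels.

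First junctions were also set against internal junctions of the same libraries. The share at -75 to -24 was lower at first than at internal junctions by 1.61, 1.36 and 0.899 points in Alyref libraries 1, 2 and 3. In Chtop it was lower by 4.13, 2.31 and 2.77 points. The other libraries did not go one way, with first minus internal values of -14.8, 0.20 and -0.520 in Nxf1 and -6.44, 1.82 and 16.9 in the Control. Over the 12 libraries the mean was -1.33 points (exact sign-flip permutation p = 0.521), and it turned to -2.98 points when Control library 3, with 78 tags, was left out (p = 0.0146 in the same exact permutation test). Leaving out library 1 of every group gave 1.38 points instead. With the subtraction for base composition the Alyref difference was -0.486 ± 0.354 points (SD, n = 3) and that of Chtop -2.04 ± 1.25 (SD, n = 3).

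Within an mRNA the first junction can be set against the second, a ratio in which the level of the mRNA cancels, and for Alyref the result depended on which transcripts and exons were taken. In 5620 transcripts with both junctions, the Alyref libraries had 15305 tags at the first and 14160 at the second. The log2 ratios were 0.15, 0.10 and 0.12 in Alyref libraries and -0.02, 0.01 and 0.00 in Chtop libraries. Nxf1 gave -0.08, 0.16 and 0.09, and the Control -0.22, 0.22 and 0.21. Alyref exceeded the other factors by 0.10 (exact permutation p = 0.0952, adjusted p = 0.367), and with transcripts chosen by the longest coding sequence the difference was -0.01. The Alyref ratio itself was then 0.017 (library range -0.0016 to 0.037), and it was -0.10 ± 0.15 (SD, n = 3) with both exons at 200 nt or more. Against internal junctions, tags per junction at first junctions were higher by 0.23, 0.14 and 0.18 on the log2 scale in Alyref and lower in Chtop, at -0.10, -0.25 and -0.14 (Alyref minus other factors 0.30, exact permutation p = 0.0595, adjusted p = 0.286). The Nxf1 values were -0.46, 0.17 and 0.08. The Control gave -0.10, 0.25 and 0.27, so that 2 of its 3 libraries lay above every Alyref library (Alyref minus Control 0.04, exact permutation p = 1.0). Without Nxf1 library 1 the Alyref leads were 0.075 over the second junction and 0.23 over internal junctions.

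Alyref tags per first junction were fewer at longer first exons, and Chtop tags were not. Counts are given as tags per 1000 first junctions in a library scaled to 1000000 tags. Alyref had 2661 ± 170 (SD, n = 3) at first exons under 150 nt, 2390 ± 171 from 150 to under 200 nt, 2150 ± 299.02 from 200 to under 300 nt, 1694 ± 236 from 300 to under 500 nt and 1343 ± 221 at 500 nt or more. Chtop had 1151 ± 134 (SD, n = 3), 1209 ± 199.2, 1413 ± 213, 1612 ± 212 and 1560 ± 373 in the same 5 classes. Alyref lay above Chtop by more than the SD of either in the shortest class, whereas from 300 nt upward the means of both differed by less than 1 SD. The Nxf1 means stayed between 809 and 988 with SDs of 307 to 490. The Control had 898 ± 682 (SD, n = 3) in the shortest class and 513 ± 332 in the longest. The classes hold different genes, and the level of their mRNA was not taken into account.

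As 1 value per library, the log2 ratio of tags per junction at first exons under 200 nt to that at 300 nt or more was 0.83, 0.59 and 0.76 in Alyref libraries 1, 2 and 3. It was -0.37, -0.42 and -0.49 in Chtop. Nxf1 gave -0.37, 0.37 and 0.33 and the Control 0.38, 0.89 and 0.28. The sign was positive in all Alyref and Control libraries and negative in all Chtop libraries. This measure was chosen after the values were seen. Alyref exceeded the other factors by 0.89 (exact permutation p = 0.0119, the smallest that 84 splits allow; 0.0357 adjusted over 3 factors), and the Control by 0.21, which was within the spread (exact permutation p = 0.4). Chtop minus the other factors was -0.85 (exact permutation p = 0.0357, adjusted p = 0.0536, and p = 0.111 within library numbers), and Chtop minus the Control was -0.94 (p = 0.1, the smallest that exact permutation of 3 against 3 allows). Without Nxf1 library 1 the differences from the other factors were 0.84 for Alyref and -1.01 for Chtop.

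**Figure D3:**
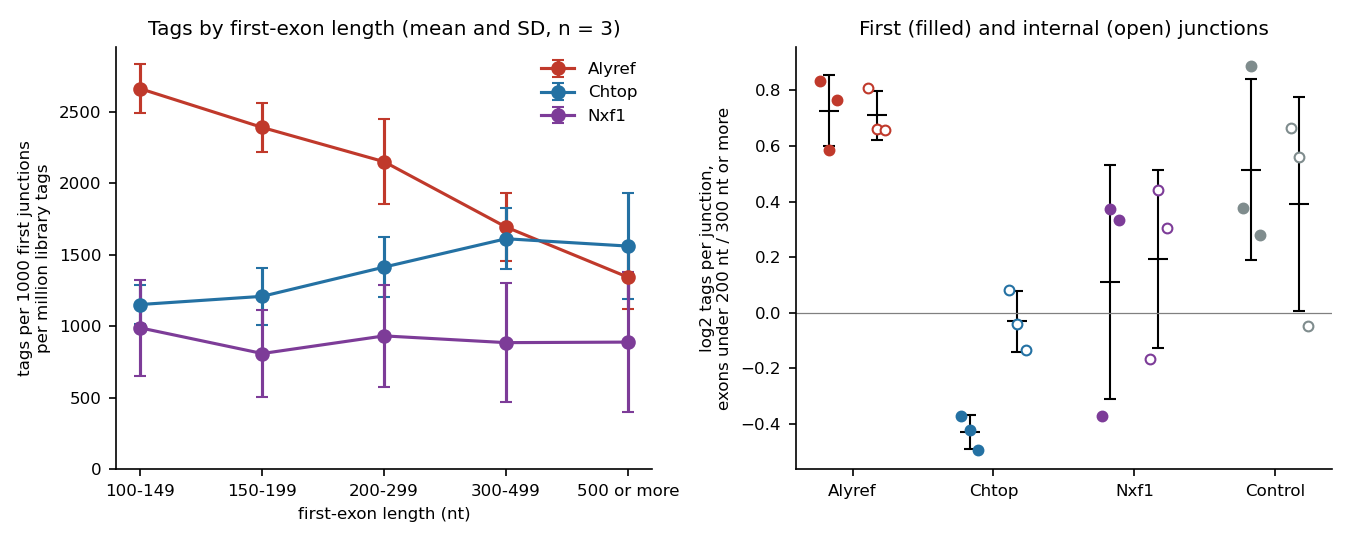
Left, tags per 1000 first junctions, in a library scaled to 1000000 tags, by length of the first exon (mean and SD of 3 libraries for each factor). Right, log2 ratio of tags per junction at upstream exons under 200 nt to those of 300 nt or more, 1 point per library, for first (filled) and internal (open) junctions; Alyref is at 0.73 and 0.71 on average and Chtop is below 0 at first junctions.

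The classes differed in more than length. The share of coding junctions rose from 51.2% under 150 nt to 85.6% at 500 nt or more, and the median first intron from 3367 to 9427 nt. GC stayed between 56.7% and 58.9%. Among coding first junctions alone the log2 ratio was 0.75 ± 0.14 for Alyref and -0.60 ± 0.13 for Chtop (SD, n = 3), and among those in the 5′ UTR it was 0.83 ± 0.11 and -0.18 ± 0.14. Within the lowest, middle and highest of 3 classes of window GC the Alyref means were 0.66, 0.64 and 1.04 and the Chtop means -0.52, -0.50 and -0.05. The same ratio by length of the upstream exon at internal junctions was 0.71 ± 0.09 for Alyref and -0.03 ± 0.11 for Chtop (SD, n = 3). First minus internal was therefore 0.02 ± 0.09 for Alyref and -0.40 ± 0.05 for Chtop. Chtop minus the other factors was -0.37 (exact permutation p = 0.0119, adjusted over 3 factors 0.0357). The Control gave -0.29, 0.33 and 0.33, and Chtop minus the Control was -0.52 (exact permutation p = 0.1, adjusted over 3 factors 0.3). The measure was chosen after the values were seen, and the adjustment leaves out the other subsets in which it was read.

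The pooled Alyref share at -75 to -24 was highest in the classes under 200 nt. It was 32.0% (95% Wilson interval 30.97% to 33.1%) at first exons under 150 nt, 31.9% (30.6% to 33.3%) from 150 to under 200 nt and 27.2% (25.96% to 28.4%) from 200 to under 300 nt. Longer first exons gave 25.4% (23.99% to 26.8%) under 500 nt and 26.9% (24.99% to 28.8%) at 500 nt or more. These intervals cover counting error only. With junctions weighted equally the Alyref means in the 5 classes were 30.6% ± 1.70, 30.4% ± 2.03, 24.8% ± 3.06, 23.9% ± 2.21 and 30.2% ± 7.40 (SD, n = 3), the last with libraries from 24.4% to 38.6%. In Chtop the pooled share was between 21.6% and 23.9% in all 5 classes. As the short minus long contrast (under 200 nt minus 300 nt or more, junctions weighted equally), Alyref gave 0.322, 3.70 and 8.23 points and Chtop -2.78, -0.805 and -1.80. Nxf1 gave 4.06, 1.71 and 5.85, and the Control 8.44, -8.83 and 24.5. Chtop minus the other factors was -5.77 points, with its 3 libraries below the other 6 (exact permutation p = 0.0357, adjusted p = 0.286). Chtop minus the Control was -9.81 points, within the Control spread (exact permutation p = 0.4, adjusted p = 0.738).

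The ratio of the first to the second junction was also read by length of the first exon. Under 150 nt the log2 ratio was 0.39 ± 0.09 (SD, n = 3, 1410 transcripts) for Alyref and -0.07 ± 0.03 for Chtop, beside 0.19 ± 0.08 for Nxf1 and 0.28 ± 0.49 for the Control. From 150 to under 200 nt it was 0.20 ± 0.07 and -0.06 ± 0.18. It was -0.15 ± 0.08 for Alyref at 500 nt or more, where Chtop had 0.06 ± 0.09. These differences between classes and between groups were not tested.

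With junctions weighted equally, the place of the junction made little difference to the share at -75 to -24. The mean upstream share of Alyref and Chtop differed by place and by length of the first intron, though neither difference was tested. Coding and 5′ UTR first junctions had 28.0% ± 0.398 and 27.7% ± 1.89 of Alyref tags (SD, n = 3) at -75 to -24, and 22.3% ± 1.55 and 22.4% ± 2.12 of Chtop tags. Exon 1 held 49.9% ± 0.634 and 47.4% ± 1.65 of Alyref window tags at coding and 5′ UTR junctions (SD, n = 3). In Chtop it held 43.3% ± 1.21 and 38.4% ± 3.09, and in the Control 56.0% ± 11.5 and 47.3% ± 4.83. Exon 1 held 54.0% ± 0.442 of Alyref window tags where the first intron was under 1000 nt, 48.6% ± 2.36 from 1000 to under 10000 nt and 47.3% ± 0.926 at 10000 nt or more (SD, n = 3). The Chtop values in these classes were 48.2% ± 3.32, 42.9% ± 0.441 and 37.05% ± 1.38, so that the upstream share was lower at longer first introns for both. Nxf1 had 50.9% ± 1.32, 45.7% ± 3.06 and 39.4% ± 10.4, in the same order. The Control had 46.9% ± 14.5, 63.8% ± 9.04 and 44.6% ± 11.1, which did not fall steadily.

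Tags around first junctions lay mainly in the exons. In the 7614 transcripts with a first intron of 200 nt or more, the exonic window held 21560 Alyref tags and the first and last 100 nt of the intron 1694, with 11542 and 1180 in Chtop. Nxf1 had 1729 and 412, and the Control 362 and 132. The log2 ratio of exon to intron tags was 3.21, 3.88 and 3.51 in Alyref, 2.98, 3.26 and 3.35 in Chtop, 3.91, 2.33 and 1.69 in Nxf1 and 3.59, 1.37 and 0.70 in the Control. Alyref minus other factors was 0.61 (exact permutation p = 0.25), and no comparison of this measure passed. Nxf1 libraries 2 and 3 lay below all Alyref and Chtop libraries, and Nxf1 library 1, with 72 window tags, above them.

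Part of the intron tags sat at the splice site itself. The last 4 bases of exon 1 had 30.0 Alyref tags per base over the 3 libraries, against 99.3 per base at -24 to -5, and the last 4 bases of the first intron had 416 tags in all, while the 20 bases before them had 209. In Chtop the last 4 bases of exon 1 had 15.3 tags per base against 48.1 at -24 to -5, and the same intron positions held 211 and 162 tags. Over all first junctions, whatever the intron length, the 4 intronic bases held 22.4% of 1861 Alyref and 16.4% of 1284 Chtop tags in the intron flanks. Counting them at the last 4 bases of exon 1 (an alternative chosen after the values were seen) raised the log2 exon to intron ratio to 3.93 ± 0.34 for Alyref and 3.44 ± 0.40 for Chtop (SD, n = 3) and left the upstream share at 49.7% ± 0.713 and 42.1% ± 0.385. How reads across the junction were placed in alignment was not tested.

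**Figure D4:**
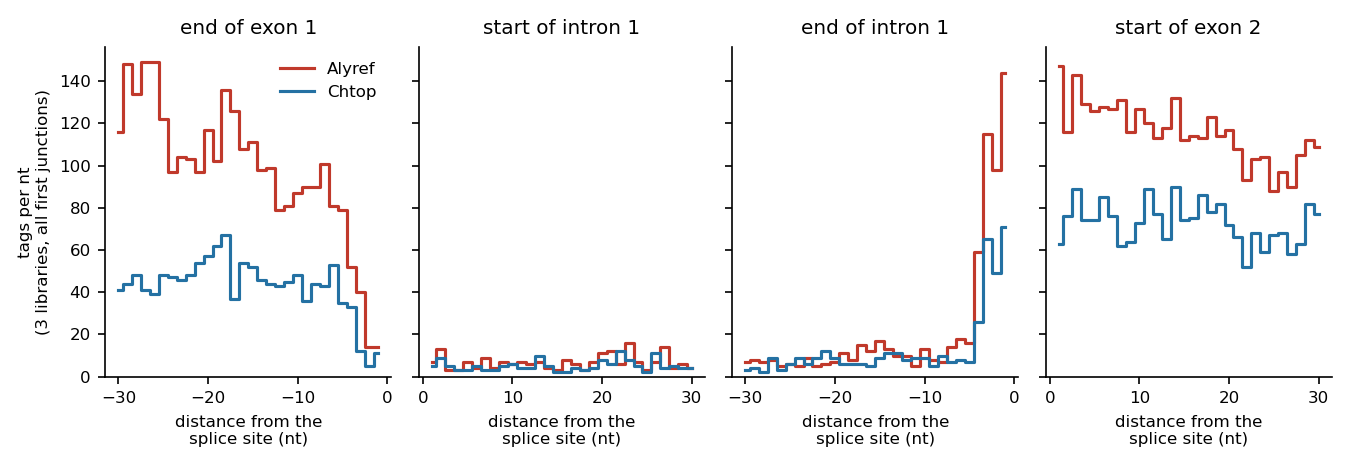
Tags per nt summed over 3 libraries and all first junctions, for Alyref and Chtop, in the 30 nt at the end of exon 1, at both ends of intron 1 and at the start of exon 2, against distance from the splice site. Tags drop in the last 4 bases of exon 1 and rise in the last 4 bases of intron 1 for both proteins, whereas the start of the intron stays low.

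Tags were spread over many first junctions. The 80 with most Alyref tags held 12.7% of the Alyref window tags, 237 had 15 or more and 12 had 50 or more, the highest being 78. HNRNPA2B1, which encodes an RNA-binding protein of nascent transcripts, had 8, 32 and 38 tags in Alyref libraries 1, 2 and 3 and 3, 14 and 15 in Chtop. MDM4, a regulator of p53, had 4, 38 and 28 Alyref and 3, 11 and 6 Chtop tags. RPS16, a small ribosomal subunit protein gene with near-identical copies elsewhere in the genome, had 6, 29 and 29 Alyref tags and only 1, 5 and 1 Chtop tags. It was the most tagged first junction in Nxf1, at 0, 11 and 8 tags, and its count is uncertain because of the copies. SNRNP70, of the U1 snRNP, had 4, 31 and 29 Alyref and 1, 3 and 3 Chtop tags, and the SR protein gene SRSF7 had 3, 31 and 27 against 0, 6 and 7.

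DDX17 had 7, 32 and 31 Alyref tags and 1, 37 and 34 Chtop tags, the most of any first junction in Chtop. OGT, the O-GlcNAc transferase gene, had 2, 23 and 27 Alyref and 1, 27 and 26 Chtop tags. SRSF1, which encodes a splicing factor, had 2, 24 and 17 Alyref and 1, 17 and 19 Chtop tags, and the helicase gene DDX5 had 5, 29 and 19 against 2, 15 and 19. In libraries 2 and 3 the Alyref and Chtop counts of these 4 genes were closer to each other than those of RPS16 or SNRNP70. The choice itself favours this, since the 4 were named for their Chtop tags and RPS16 and SNRNP70 for their Alyref tags. Nxf1 tags were next most frequent at ATP5F1B, of the mitochondrial ATP synthase (2, 4 and 5), at SNRPB, of the spliceosomal Sm ring (0, 4 and 4), and at EIF5A, a translation factor with close copies (0, 5 and 2). In the Control no first junction had more than 4 tags. ZNF207, a spindle-associated zinc finger gene, had 0, 2 and 2 there, next to 5, 35 and 21 in Alyref, and HDAC5, MTOR and NALCN had 3 Control tags each.

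**Figure D5:**
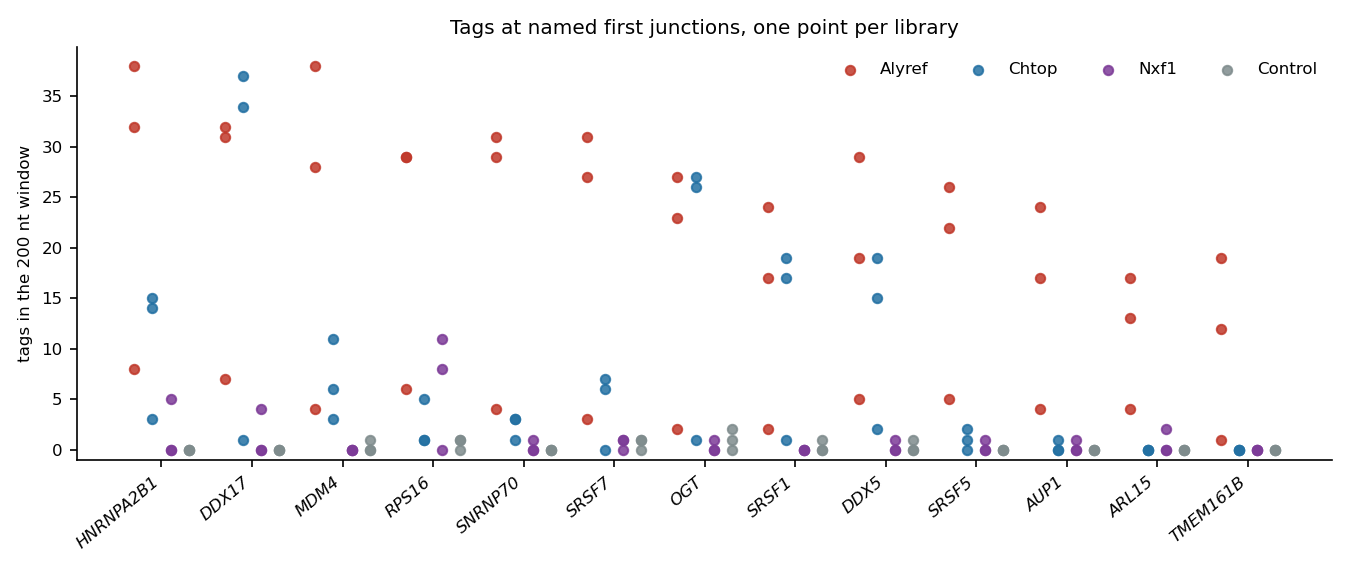
Tags in the 200 nt window of 13 named first junctions, 1 point per library and 4 groups side by side. The highest Chtop count reaches the highest Alyref count at DDX17 and OGT, and Chtop stays at 3 or fewer per library at SNRNP70, SRSF5, AUP1, ARL15 and TMEM161B; Control points are at 0 to 2.

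Among the 12 first junctions with 50 or more Alyref tags the share at -75 to -24 ranged widely. The highest were OGT with 55.8% of 52 tags (95% Wilson interval 42.3% to 68.4%), DDX5 with 49.1% of 53 (36.1% to 62.1%) and RPS16 with 46.9% of 64 (35.2% to 58.9%). The lowest were MDM4 with 22.9% of 70 (14.6% to 34.0%), FANCA with 15 of 60 (15.8% to 37.2%) and ORC6, of the origin recognition complex, with 26.8% of 56 (16.96% to 39.6%). These 6 were picked by this share, so the intervals are a description. In OGT the Chtop share was high as well, at 42.6% of 54 tags, whereas MDM4 had 0 of its 20 Chtop tags there.

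Single first junctions were tested with edgeR (quasi-likelihood F-test, TMM) on all junction windows with 15 or more tags over the 12 libraries, which were 6416 windows, 597 of them first junctions. Alyref was higher than Chtop at 4 first junctions (0.670% of those tested), and over all windows 0.0935% were called higher. None was lower. ARL15, a small GTPase gene, had 4, 13 and 17 Alyref tags and 0 Chtop tags in all 3 libraries, at least 8.74-fold higher per library tag (against 3 tags over the group; edgeR adjusted p = 0.0256). TMEM161B, a membrane protein gene, had 1, 19 and 12 against 0, at least 8.23-fold higher (edgeR adjusted p = 0.0256). AUP1, of the endoplasmic reticulum and lipid droplets, had 4, 17 and 24 Alyref tags and 1, 0 and 0 Chtop tags, a ratio of 34.7 (counting interval 5.92 to 1401) with an edgeR adjusted p of 0.0256. SRSF5, an SR protein gene, had 5, 26 and 22 against 0, 2 and 1, a ratio of 13.6 (counting interval 4.42 to 68.2) with an edgeR adjusted p of 0.0426. In each of the 4 every Alyref count exceeded every Chtop count, but library depths differ. The filter of 15 tags counted all libraries together. Alyref gave all 32 tags of TMEM161B, 34 of 36 at ARL15, 45 of 47 at AUP1 and 53 of 57 at SRSF5. These 4 thus passed the filter through the group in which they were called higher, and without the filter 0 first junctions were called. Leaving out Alyref library 3, Chtop library 2 or Chtop library 3 ended all 4 calls (edgeR adjusted p = 0.754 without Chtop library 3), Alyref library 2 left 1 (ARL15), Nxf1 library 3, Control library 1 or Control library 2 left all but SRSF5, and without Chtop library 1 there were 10. TMEM161B was not tested without Alyref library 2, since it then fell under the 15-tag filter. Over all windows, leaving out Chtop library 1 gave 19 of 6276. With the library number as a block there were 10 as well, and 16 of 6416 windows in all.

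These calls depend on how libraries are scaled. The TMM factors ran from 0.346 to 8.90, with 7.68 in Nxf1 library 1 and 8.90 in Control library 1. With library totals in place of TMM, 39 first junctions were called higher in Alyref than in Chtop, and 100 of the 6416 windows in all. By DESeq2 the count was 0, with 38 first junctions at an unadjusted p under 0.05. The median log2 fold change of the 597 first junctions was 0.52, and of all 6416 windows 0.09, with the TMM factors.

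Against the Control, Alyref was higher at 4 first junctions by edgeR (0.670%) and Chtop at 1 (0.168%), while 0.218% of all windows were called higher for Alyref and 0.187% for Chtop. HNRNPA2B1, DDX17, SNRNP70 and FANCA (7, 25 and 28 Alyref tags) all had 0 Control tags. Per library tag Alyref was at least 1.79-fold higher at HNRNPA2B1, 1.61-fold at DDX17, 1.47-fold at SNRNP70 and 1.38-fold at FANCA, with edgeR adjusted p of 0.0359, 0.0391, 0.0409 and 0.0409. Chtop at DDX17 was at least 2.14-fold higher (edgeR adjusted p = 0.0145). Over all windows the median log2 fold change of Alyref against the Control was 4.06 with TMM and 3.90 with library totals. With library totals in place of TMM neither contrast had a call, and leaving out any Control or Alyref library, Chtop library 2 or Nxf1 library 2 or 3 left 0 Alyref calls (edgeR adjusted p = 0.204 without Control library 3), while Chtop library 3 left 2. The Chtop call was lost without any Control library, Alyref library 2 or 3, or Chtop library 2 or 3. Without Chtop library 1 the counts were 59 for Alyref and 85 for Chtop of 592 first junctions, beside 416 and 1324 of 6276 windows. With the library number as a block they were 12 (2.01%) and 2 (0.335%), against 0.888% and 0.748% of all windows. Alyref against Nxf1, Chtop against Nxf1 and Nxf1 against Control gave 0 called first junctions by edgeR. At an unadjusted edgeR p under 0.05 were 231, 130 and 11 of 597, beside 1999, 1699 and 161 of 6416 windows. With the block 3, 0 and 0 first junctions were called higher, beside 9, 9 and 0 of 6416 windows. DESeq2 gave an adjusted p to 46 first junctions for Alyref against Nxf1 and called 13 higher (28.3%, against 16.1% of 446 windows). For Chtop against Nxf1 it called 11 of 57 higher (19.3%, against 14.7% of 570 windows) and 2 lower (8 of the 570 windows). In Nxf1 against the Control DESeq2 called 0.

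The genes of 6 lists, drawn up by complex or protein family, were read for their own first junctions. Of the 3 cap-binding complex genes, 1 had a first junction of this kind, NCBP2, with 0, 3 and 3 Alyref and 0, 3 and 1 Nxf1 tags, too few for the test. Of 18 exon junction complex and nonsense-mediated decay genes 6 were members, and only SMG1, a kinase of that decay pathway, was tested, with 2, 8 and 8 Alyref and 1, 12 and 10 Chtop tags. UPF3B, UPF1, SMG6 and SAP18 had 3 to 6 tags each in all and UPF3A none. Of 19 TREX and export genes 7 were members and 2 were tested, none of them called. MCM3AP had 13 Alyref and 12 Chtop tags, ZC3H11A 18 and 4, NXF1 11 and 3, ALYREF 5 and 2, THOC6 9 and 0 and FYTTD1 1 and 0, while THOC3 had none. Tags of the FLAG transgene cannot be told apart from those of the gene it encodes, and NXF1 had 0 tags at its first junction in the Nxf1 libraries.

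SR protein genes had many tags. Of 13, 11 had a first junction of this kind, all 11 were tagged and 7 were tested, of which SRSF5 alone was called, higher in Alyref than in Chtop, where 0.670% of the 597 first junctions were called. That call was lost on leaving out Alyref library 2 or 3, Chtop library 2 or 3, Nxf1 library 3, or Control library 1 or 2 (edgeR adjusted p from 0.051 to 0.754). Their 290 Alyref tags exceeded 105 Chtop tags, and 90.9% of members had more Alyref than Chtop tags. That was so at 40.3% of all 7966 first junctions, most of which had few tags and only 55.2% an Alyref tag. Alyref tags were in excess at first junctions as a whole, with 22481 against 11826 Chtop tags. The libraries held 1316302 Alyref and 1015469 Chtop tags in all, and the list totals here are not scaled for this. A high share was not particular to SR protein genes, since it was 91.7% in the translation factor list and 85.7% in the TREX and export list. It was lower in the hnRNP list and lowest, though above that of all first junctions, in the exon junction complex and decay list. The median log2 fold change of the 7 SR protein genes tested was 1.06, beside 0.52 for all 597. SRSF10 had 3, 23 and 16 Alyref tags and 0, 10 and 5 Chtop tags. The 10 hnRNP genes with a first junction had 176 Alyref and 103 Chtop tags, with a median log2 fold change of -0.27 in the 5 tested. HNRNPL had 1, 13 and 10 against 0, 13 and 9, and HNRNPDL 2, 10 and 6 against 4, 8 and 10. HNRNPA2B1 was the only one called, against the Control. The 12 translation factor genes had 113 and 49 tags with a median of 0.72 in the 6 tested and no call in any contrast. PABPC4 had 15 Alyref and 11 Chtop tags, EIF3A 15 and 12, and EIF4G2 15 and 6.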

How the data were processed

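The files hold counts: by the authors' methods and the values, each deposited library table lists crosslinked bases with strand and the count of deduplicated tags. The labels list 32 lane runs, and the tables used number 12, 1 per library. The authors aligned reads to hg19 with Ensembl 75 junctions, and the submitters' processing notes name Bowtie 1.1.2, STAR 2.4.2a and UMI-tools 0.5.3. Pooled tables were not used, and 0 per-sample columns were left unused. Junctions came from GENCODE 44 mapped to GRCh37, with 647 readthrough genes left out. This annotation is later than the one used for alignment.

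Tags on the gene's strand were summed by position (Python 3.11.15, numpy 2.4.6, pysam 0.24.0). Shares weight each tagged junction equally, and log2 ratios add 0.5 tags to each sum. The base-composition expectation distributes each junction's tags by that library's rate per base over all windows. The 8 measures per library were compared by two-sided exact permutation tests, each factor against both others (3 libraries and 6, 84 splits) and against the Control (3 and 3, 20 splits), each family of 24 adjusted by Benjamini-Hochberg. Counts per window were tested with edgeR 4.0.16 in R 4.3.3 (TMM, Benjamini-Hochberg over 6416 windows, threshold 0.05), with DESeq2 1.42.0 as an alternative. Scripts were tested on simulated data. Named first junctions were the 6 with most Alyref tags and the 4 with most in each of Chtop, Nxf1 and the Control, up to 5 called per contrast and direction, the 3 highest and 3 lowest shares at 50 or more Alyref tags, and the 3 most tagged members of each of 6 gene lists (all members of the first 3). First and internal junctions were compared by exact sign flips over libraries. Alternatives were other exon lengths, windows, transcripts, weights, scalings and filters, the replicate number as a block, and leaving out each library. Members, lists and tests were chosen with earlier results of these data known. Intervals and floors (3 tags) cover counting error only. Library totals ranged from 7017 to 631704 tags.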

Additional observations from a re-analysis of the deposited data

Results flagged for a closer look

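In the contrast of short and long first exons, Chtop lay apart from the other factors before correction. The share of tags at -75 to -24 in first exons under 200 nt minus that in first exons of 300 nt or more was -1.79 ± 0.988 points in Chtop (SD, n = 3) and 4.08 ± 3.97 in Alyref. Chtop minus the other factors was -5.77 points, below 0 in each of 3 Chtop libraries and above 0 in each of the other 6 factor libraries (exact permutation p = 0.0357, adjusted p = 0.286, so it did not pass the correction). The Control libraries gave 8.44, -8.83 and 24.5 points, a range that holds all Chtop values, and Chtop minus the Control was -9.81 points (exact permutation p = 0.4, adjusted p = 0.738). Of the 48 comparisons of the 8 measures, 6 tested whether a difference between length classes was equal across groups, and this was the 1 with an unadjusted p under 0.05.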

How the results depend on the processing

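No comparison of the 8 measures passed the adjusted threshold, so a kept side of it says little about stability. Under other processing 266 values kept direction and side, 22 changed sign and 13 moved. With exons of at least 200 nt, these differences from the other factors changed sign: Nxf1 share at -75 to -24 6.10 points, Nxf1 upstream share 0.280 points, Chtop first to second 0.13 and first to internal 0.20 (log2), Alyref exon to intron -0.028 (log2), Alyref uracil share -0.0442 points, and first minus internal share -5.55 (Alyref), -2.34 (Chtop) and 7.89 points (Nxf1). So did, against the Control, first to second in Chtop (1.42) and Nxf1 (1.17) and first to internal in Chtop (0.093), and over all libraries first minus internal share (3.77 points). Summing tags gave -0.789 points for the Chtop first minus internal difference. The longest coding sequence gave first to second -0.0052 (Alyref minus other factors), 0.083 (Nxf1) and -0.16 (Alyref minus Control), and first to internal 0.021 (Nxf1) and -0.067 (Alyref minus Control). Without exons of other genes, Nxf1 first to second was 0.016 against other factors and 0.062 against the Control. Among coding junctions the Nxf1 difference in tags by first-exon length was 0.0052. The causes were not tested.

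First junctions called higher in Alyref than in Chtop, 4 by edgeR, were 0 by DESeq2, 39 with library totals, 0 without a filter and 10 with a replicate block. For Alyref against the Control, 4, these counts were 37, 0, 0 and 12, and for Chtop against the Control, 1, they were 19, 0, 0 and 2. The DESeq2 counts were 37 of 66 first junctions (56.1%, against 41.9% of 694 windows) and 19 of 57 (33.3%, against 43.0% of 570 windows). Alyref against Nxf1, 0, had 13 by DESeq2, 6 with totals and 3 with the block. Over all 6416 windows totals gave 30 and the block 9. Chtop against Nxf1, 0, had 11 by DESeq2 and 4 with totals, beside 3 called lower with totals. Over all 6416 windows totals gave 35 higher and 10 lower. The DESeq2 counts were out of 46 and 57 first junctions. The filterByExpr filter left 0 first junctions and gave no value. The replicate block gave p = 0.0741 (exact permutation within numbers) for the Alyref share at -75 to -24 and for its upstream share, whose differences stayed 5.87 and 6.06 points, and p = 0.037 and 0.111 for tags by first-exon length in Alyref and Chtop. Same-numbered libraries of different groups did not deviate together (correlations -0.0523 to 0.0439 over 18 pairs, against -0.0395 to 0.0518 over 36 pairs with different numbers), so these correlations did not show pairing. They do not settle it, since the sequencing runs went by library number. Library 2 of every group shares HiSeq lanes 5 and 6, and libraries 1 and 3 share lanes 7 and 8. Libraries 1 and 2 also had a MiSeq run, and library 3 did not. Library 1 stands apart in both Nxf1 and the Control in scaling factor and uracil offset.

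Leaving out 1 library, or library 1 of every group, gave these ranges where a sign or count changed. Calls were 0 to 10 for Alyref over Chtop, 0 to 59 for Alyref and 0 to 85 for Chtop over the Control, and 0 to 17 for Alyref and 0 to 31 for Chtop over Nxf1. The highest counts came without Chtop library 1, when all 6276 windows gave 19 calls for Alyref over Chtop. Over the Control these windows gave 416 for Alyref and 1324 for Chtop, and over Nxf1 78 and 361. The share at -75 to -24 was -8.34 to 1.39 points for Alyref minus Control and -5.69 to 1.26 for Nxf1 minus other factors. Upstream share was -2.76 to 2.22 for Nxf1 minus other factors. First minus internal share was -2.98 to 1.38 over all libraries, -10.6 to 1.02 for Alyref minus Control, and -2.23 to 0.757 for Chtop and -5.46 to 2.02 for Nxf1 against other factors. First to second was -0.10 to 0.13, -0.21 to 0.0025 and -0.16 to 0.058 for Alyref, Chtop and Nxf1 minus Control, and -0.058 to 0.062 for Nxf1 minus other factors. First to internal was -0.10 to 0.10 for Alyref minus Control and -0.20 to 0.14 for Nxf1 minus other factors. Exon to intron was -0.17 to 0.45 for Chtop minus other factors. The length contrast was -12.4 to 4.28 for Alyref and -12.6 to 4.07 for Nxf1 minus Control, and uracil share -0.665 to 4.65 for Alyref minus other factors and -2.73 to 5.61 for Nxf1 minus Control. Tags by first-exon length were -0.17 to 0.20 for Nxf1 minus other factors, 0.82 to 0.99 for Alyref and -1.01 to -0.77 for Chtop. Nxf1 library 1 and Control libraries 1 and 3 had 72, 79 and 78 first-junction tags.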
